A study of Homo sapiens with 8 samples.

Results

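The tricarboxylic acid (TCA) cycle enzymes examined here were 9 genes, CS, IDH2, IDH3A, OGDH, DLST, SUCLG1, SUCLA2, FH and MDH2, found by symbol as 9 of 60664 gene rows in both count files. They were chosen by name, with earlier results of these libraries known. HEK293T is a transformed line from human embryonic kidney, and all 8 libraries came from HEK293T cells that expressed APEX2. This peroxidase attaches biotin to RNA close to it, and biotinylated RNA was collected on streptavidin beads and sequenced. There were 4 groups of 2 libraries: labelled and unlabelled control cells with APEX2 in the nucleus (NLS), and labelled and unlabelled control cells with APEX2 at the outer mitochondrial membrane (OMM). The NLS libraries were made with a total RNA kit and the OMM libraries with an mRNA kit. Their titles also read ribominus (NLS) and trizol (OMM), and the series text gives release of RNA by Proteinase K (NLS) and TRIzol (OMM). Site therefore cannot be told apart from kit or from this stated difference in release. The controls also expressed APEX2, so each comparison asks which RNAs took a larger or smaller share of the recovered RNA in labelled cells. The labels do not say how APEX2 was introduced, whether the cells were 1 clone, or whether both libraries of a group had their own culture. The p-values therefore reflect the spread among these libraries alone, and that spread may be technical.

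The TCA cycle oxidises acetyl groups to carbon dioxide in the mitochondrial matrix and passes the electrons to the respiratory chain. All of its enzymes are encoded in nuclear DNA, so each mRNA is made and spliced in the nucleus, exported and translated in the cytosol. The new protein is then imported into the matrix, in most cases guided by a positively charged sequence at its amino end, and some mRNAs of matrix proteins are known to be translated at the mitochondrial surface. Nuclear and surface labelling thus look at the same mRNA at the start and towards the end of its path.

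The first 60 coding bases of 6 members are shown because they encode the amino end, where the import sequence lies in most cases. They cover the 3 members that passed the test for a difference between the sites (MDH2, IDH2 and CS). Also shown are the 2 members that did not pass the test at NLS (SUCLA2 and DLST), and SUCLG1, the partner of SUCLA2. All 6 runs are read 5′ to 3′ from GENCODE 29 transcripts, with the start codon in capitals.
MDH2: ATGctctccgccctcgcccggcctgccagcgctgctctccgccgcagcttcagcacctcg
IDH2: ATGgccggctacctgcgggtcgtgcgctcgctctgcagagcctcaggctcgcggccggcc
CS: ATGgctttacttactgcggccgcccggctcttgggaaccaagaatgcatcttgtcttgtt
SUCLA2: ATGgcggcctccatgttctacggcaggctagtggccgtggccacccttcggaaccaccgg
DLST: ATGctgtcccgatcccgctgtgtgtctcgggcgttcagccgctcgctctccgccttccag
SUCLG1: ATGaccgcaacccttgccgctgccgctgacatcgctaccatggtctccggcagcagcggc

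In GRCh38 these runs lie in exon 1 at chr7:76048161-76048220 on the plus strand (MDH2), chr15:90102331-90102390 on the minus strand (IDH2), chr13:48001210-48001269 on the minus strand (SUCLA2), chr14:74881954-74882013 on the plus strand (DLST) and chr2:84459210-84459269 on the minus strand (SUCLG1). That of CS begins in exon 1 and ends in exon 2, at chr12:56286628-56300201 on the minus strand. Of the 60 bases, 75.0% were G or C in IDH2, 73.3% in MDH2, 66.7% in SUCLA2, DLST and SUCLG1, and 51.7% in CS. Any link of this share to the labelling effects was not tested.

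Total counts were 9531568 and 8039176 in the labelled NLS libraries and 20746393 and 21096586 in the NLS controls. They were 52421161 and 34705126 in the labelled OMM libraries and 41660431 and 35165227 in the OMM controls. Every member had counts in all 8 libraries, between 110 for IDH2 in a labelled NLS library and 29020 for CS in a labelled OMM library. Their summed share of all counts was 0.0763% and 0.0766% in labelled NLS libraries and 0.0970% and 0.104% in NLS controls, 0.143% in both labelled OMM libraries, and 0.127% and 0.136% in OMM controls. Of 5 markers of HEK293T, VIM, KRT8, KRT18 and NEFM had counts in all libraries and PAX2 was at 0 in 1 labelled and 1 control OMM library. Of 10 markers of other cell types, APOA2 was at 0 in all 8 libraries. Their summed level in CPM, counts scaled to library size, was 6.72 to 9.34 CPM in labelled NLS libraries, 6.73 to 9.78 CPM in NLS controls, 1.58 to 4.73 CPM in labelled OMM libraries and 12.1 to 26.7 CPM in OMM controls, where all of it was COL1A1. Its part in the results was not tested.

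With APEX2 in the nucleus, 7 of the 9 mRNAs fell in labelled libraries, 0 rose, and SUCLA2 and DLST did not pass the test. MDH2, malate dehydrogenase, which regenerates oxaloacetate at the end of the cycle, fell the most, to 77.7 ± 8.55 CPM in labelled libraries against 251 ± 10.6 CPM in controls (SD, n = 2 each), 3.23-fold lower. Of all 20858 genes tested 28.5% fell and 28.8% rose at the same threshold, an adjusted p under 0.05 by edgeR's quasi-likelihood test, or 57.3% in either direction. Among protein-coding genes 39.8% fell and 19.4% rose, 59.1% in all. The median log2 fold change of the members was -0.77, beside 0.14 for all tested genes and -0.26 for protein-coding genes. These are shares of recovered RNA in bulk libraries. Fewer contributing cells and less RNA per cell cannot be told apart in them, nor can a lower yield of these mRNAs and a higher yield of others.

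The count of falling members depended on scaling. With library size alone, 4 members fell (MDH2, IDH2, IDH3A and CS) and SUCLA2 rose, where 3351 of all 20858 genes fell and 9122 rose. The median over all genes moved to 0.66 and that of the members to -0.25 on the log2 scale. The members' median minus that of all genes was -0.91 under both scalings. A change of scaling shifts all genes nearly alike, so this difference could hardly move and is no check of the result. The p-values of the authors' deposited table matched DESeq2's adjusted p. At a deposited p under 0.05, 7 members were lower and 0 higher at NLS, where 20.2% of all genes were lower and 22.1% higher.

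**Figure D1:**
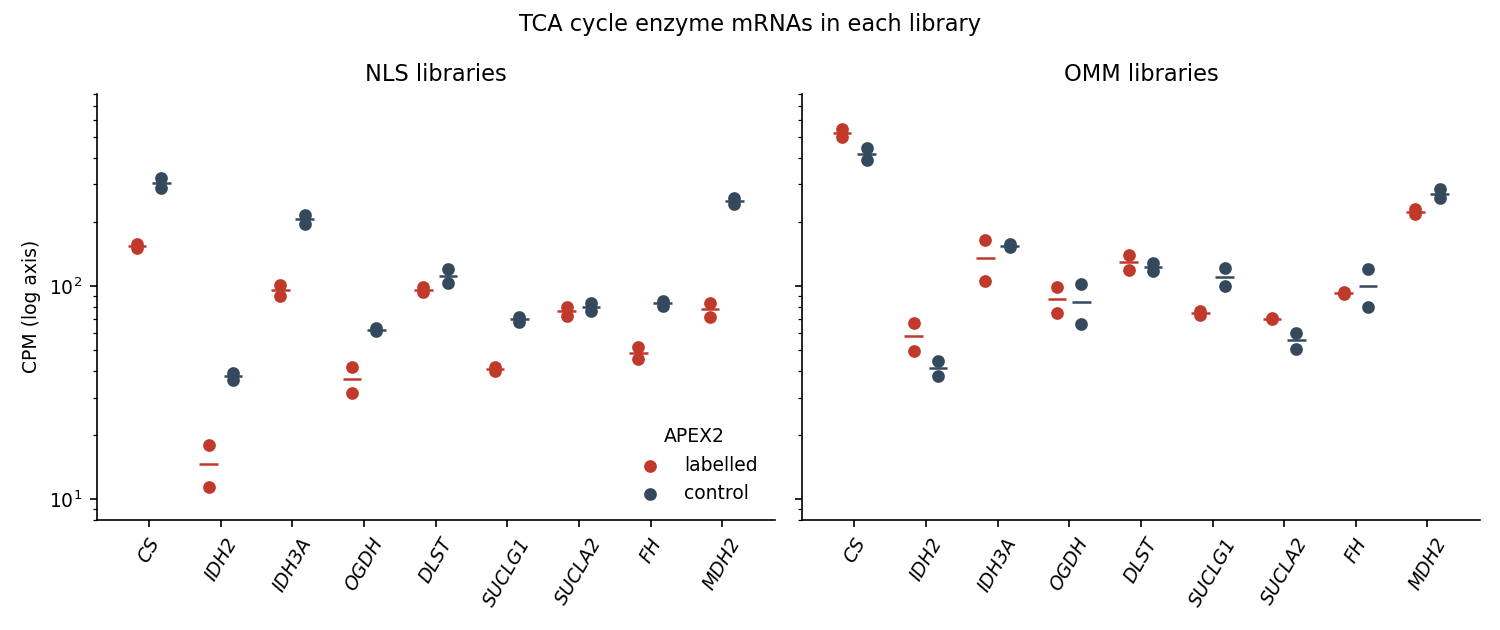
Level of each member in CPM (log axis) in the NLS libraries (left) and the OMM libraries (right). Points are single libraries, bars are means of 2, labelled libraries are red and controls dark. At NLS the labelled points of MDH2, 83.7 and 71.6 CPM, sit far below the controls at 244 and 259 CPM, while those of SUCLA2 overlap its controls.

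Citrate synthase, CS, which joins acetyl-CoA to oxaloacetate at the entry of the cycle, had 157 and 150 CPM in the labelled NLS libraries, against 321 and 287 CPM in the NLS controls. All labelled values lay below all control values. Its log2 fold change was -0.99 ± 0.10 (SE, adjusted p = 0.000101).

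The isocitrate dehydrogenases oxidise isocitrate to 2-oxoglutarate. IDH3A, the catalytic subunit of the NAD-dependent enzyme, had 90.1 and 101 CPM in labelled NLS libraries and 216 and 195 CPM in controls, a log2 fold change of -1.10 ± 0.11 (adjusted p = 8.8e-05). IDH2, the NADP-dependent matrix enzyme, had 17.9 and 11.4 CPM in labelled libraries and 39.2 and 36.4 CPM in controls. It was the member with the fewest counts and the widest spread, since its labelled libraries differed 1.57-fold, but neither came near a control, and its log2 fold change was -1.36 ± 0.22 (adjusted p = 0.00122). Without labelled library 3 it was -1.04, and without labelled library 1 it was -1.70.

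OGDH and DLST are the first and second components of the 2-oxoglutarate dehydrogenase complex, which makes succinyl-CoA. OGDH had 42.0 and 31.5 CPM in labelled NLS libraries and 63.3 and 61.5 CPM in controls, a log2 fold change of -0.76 ± 0.16 (adjusted p = 0.00391). DLST had 93.9 and 98.7 CPM in labelled libraries and 120 and 103 CPM in controls. The labelled DLST values were below both controls by a small margin, and the log2 fold change of -0.21 ± 0.11 did not pass the test (adjusted p = 0.137). It did pass when control library 3 was left out (log2 fold change -0.32, adjusted p = 0.0295), and it was 0.30 with library size alone.

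The succinyl-CoA ligases turn succinyl-CoA into succinate and gain a nucleoside triphosphate. SUCLG1 encodes the alpha subunit of both ligases and SUCLA2 the beta subunit of the ADP-dependent one. SUCLG1 had 41.9 and 40.1 CPM in labelled NLS libraries and 68.1 and 71.5 CPM in controls, a log2 fold change of -0.77 ± 0.12 (adjusted p = 0.000833). SUCLA2 had 72.7 and 80.2 CPM in labelled libraries and 76.3 and 83.5 CPM in controls, so the groups overlapped. Its log2 fold change was -0.06 ± 0.11 (adjusted p = 0.646), 0.03 without labelled library 1, and 0.46 with library size alone, where it counted as higher (adjusted p = 0.00899).

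FH, fumarase, hydrates fumarate to malate. It had 45.7 and 51.7 CPM in labelled NLS libraries and 85.2 and 80.6 CPM in controls, a log2 fold change of -0.77 ± 0.12 (adjusted p = 0.000905). MDH2 had 83.7 and 71.6 CPM in labelled libraries and 244 and 259 CPM in controls, and its log2 fold change of -1.69 ± 0.11 (adjusted p = 2.12e-05) was lower than that of all but 4.84% of protein-coding genes. By the same count 11.3% of protein-coding genes lay below IDH2, 18.7% below IDH3A and 22.7% below CS. FH, SUCLG1 and OGDH each had 30.7% to 31.0% below them, DLST had 51.9% and SUCLA2 57.5%, the last 2 in the middle of the protein-coding genes.

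The calls of OGDH, SUCLG1 and FH ended with library size alone (adjusted p = 0.202, 0.0955 and 0.109 by edgeR), and those of OGDH and FH also ended when all 8 libraries shared 1 estimate of the spread (adjusted p = 0.139 and 0.0863). RNA encoded in mtDNA took 0.850% and 0.812% of counts in labelled NLS libraries and 4.49% and 3.19% in NLS controls, and its part in these results was not tested.

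**Figure D2:**
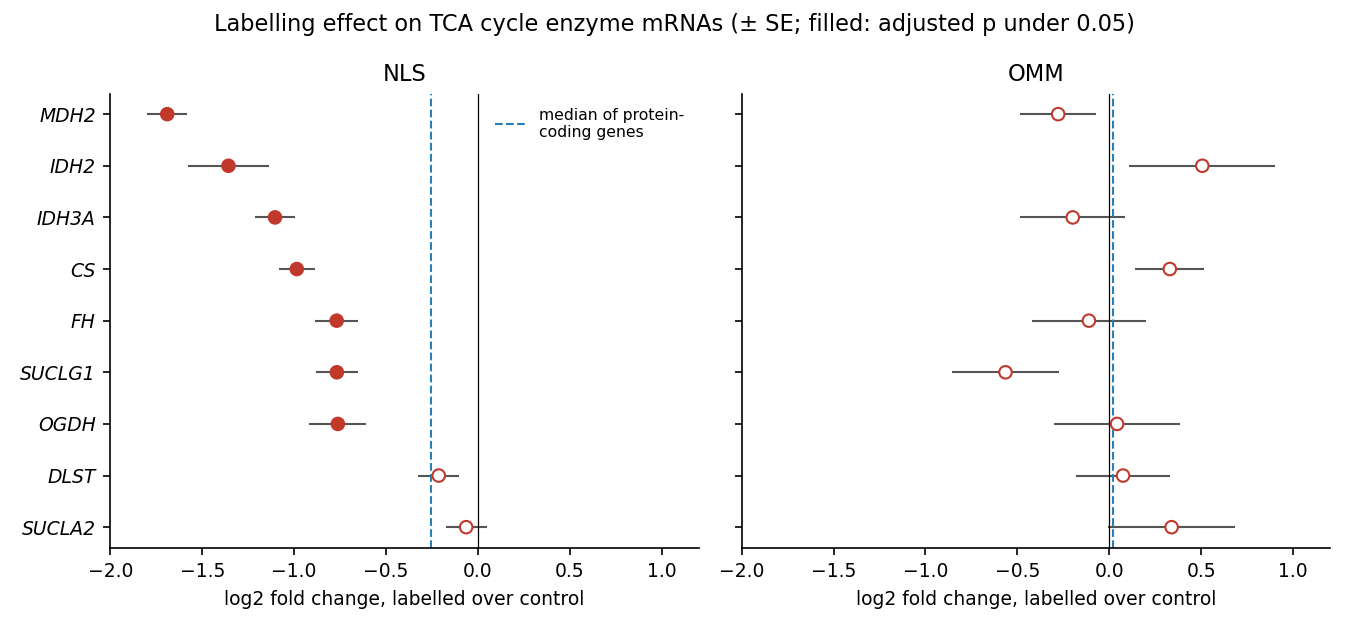
Log2 fold change of labelled over control for each member at NLS (left) and OMM (right), ordered by the NLS value. Bars are SE, filled points passed the test at an adjusted p under 0.05, and the dashed line is the median of protein-coding genes, -0.26 at NLS and 0.02 at OMM. At NLS 7 points are filled, and at OMM 0.

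At the outer mitochondrial membrane 0 of the 9 members passed the test, and the log2 fold changes ran on both sides of 0, with 5 positive and 4 negative. Their median was 0.04, beside 0.00 for all genes tested and 0.02 for protein-coding genes. An adjusted p under 0.05 was reached by 0.194% of all 14438 genes tested there, 0.139% higher and 0.0554% lower, and by 0.208% of protein-coding genes, 0.16% higher and 0.048% lower, so few calls were made at OMM on any gene. At an unadjusted p under 0.05 the count of members was also 0 by edgeR, where 1524 of all 14438 genes reached it. By DESeq2 it was 2 of the 9 members, where 3641 of all 19296 genes reached it. In the authors' deposited table, whose p matched DESeq2's adjusted p, 6.53% of all genes were higher and 5.7% lower at OMM. There 0 members passed, and the smallest of these adjusted values among them was 0.081. The OMM libraries of a group differed more than those at NLS: tested protein-coding genes had a median ratio of 1.51 between the 2 labelled OMM libraries and 1.46 between the OMM controls, against 1.12 and 1.15 at NLS. The members' own medians were lower, 1.10 in labelled and 1.18 in control OMM libraries.

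CS had 548 and 498 CPM in labelled OMM libraries, against 390 and 442 CPM in OMM controls. Both labelled values were above both controls, and the log2 fold change of 0.33 ± 0.19 did not pass (adjusted p = 0.586). IDH2, with 67.4 and 49.8 CPM in labelled libraries and 37.8 and 44.7 CPM in controls, also had its labelled values on top (0.51 ± 0.40, adjusted p = 0.750). SUCLA2 was another of this kind, at 69.8 and 70.8 CPM in labelled libraries and 60.4 and 50.7 CPM in controls (0.34 ± 0.34, adjusted p = 0.856).

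The members with labelled values below both controls at OMM were SUCLG1 and MDH2. SUCLG1 had 76.1 and 73.2 CPM in labelled OMM libraries and 121 and 99.8 CPM in controls, a log2 fold change of -0.56 ± 0.29 (adjusted p = 0.544). MDH2 had 218 and 230 CPM in labelled libraries and 285 and 257 CPM in controls (-0.28 ± 0.21, adjusted p = 0.727). So 5 of the 9 members had groups that did not overlap, while 43.8% of all tested genes (labelled above in 21.3% and below in 22.5%) and 44.7% of protein-coding genes (above in 22.7% and below in 21.9%) did so at OMM. At NLS the members' count was 8 of 9, with labelled values below controls in each, where 37.7% of all tested genes and 50.6% of protein-coding genes were below, 45.1% and 31.3% above, and 82.8% and 81.9% did not overlap in either direction.

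The other members overlapped at OMM. IDH3A had 106 and 164 CPM in labelled libraries and 157 and 152 CPM in controls, and its log2 fold change was -0.20 ± 0.29, or 0.09 without labelled library 2. For OGDH the values were 99.1 and 74.7 CPM in labelled libraries and 66.7 and 102 CPM in controls (0.04 ± 0.34). DLST had 139 and 119 CPM in labelled libraries and 128 and 118 CPM in controls (0.08 ± 0.26), and FH had 91.3 and 93.6 CPM in labelled libraries and 120 and 79.9 CPM in controls (-0.11 ± 0.31). For these 4 genes the spread within a group was as wide as the gap between group means, and the signs of IDH3A, OGDH, DLST and FH each changed when 1 library was left out. mtDNA-encoded RNA took 1.17% and 1.65% of counts in labelled OMM libraries and 7.19% and 4.29% in OMM controls, and its part in these values was not tested.

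The labelling effect passed the test for a difference between sites for CS, IDH2 and MDH2, each lower at NLS by the interaction term of a joint fit. That fit gives each gene 1 estimate of spread for both sites, though biological variation was estimated as 0.166 at NLS and 0.958 at OMM. For MDH2 the SE of the difference was 0.194, below the 0.208 of its OMM effect alone, so these SEs and p-values may be too small. The difference, NLS minus OMM, was -1.34 ± 0.19 on the log2 scale for CS (adjusted p = 0.0108), -1.44 ± 0.19 for MDH2 (adjusted p = 0.00992) and -1.90 ± 0.43 for IDH2 (adjusted p = 0.047). At this threshold 6.73% of all 23178 genes and 10.5% of protein-coding genes were lower at NLS than at OMM, and 1.41% and 1.49% were higher, or 8.14% and 12% in either direction. The other 6 differences ran from -0.23 for SUCLG1 to -0.93 for IDH3A and did not pass, and those of SUCLG1 and DLST were positive with DESeq2's size factors (0.19 and 0.11) and with library size alone. The calls depended on single libraries. That of MDH2 was kept without labelled NLS library 1 (adjusted p = 0.0403) and lost without labelled NLS library 3 (0.0747), control library 1 (0.0939) or control library 3 (0.0971). CS lost its call without any of these 4 NLS libraries (adjusted p = 0.0518 to 0.0976) and with library size alone (0.0632), and IDH2 passed in 3 of 12 alternatives. When either NLS control was left out, 0 genes of the whole table passed by edgeR, though 3343 and 3384 had an unadjusted p under 0.05. Site, kit and the stated release of RNA coincide. A difference between nucleus and mitochondrial surface therefore cannot be told apart from one between total RNA and mRNA libraries or between ways of release.

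Per kilobase of the main transcript, the order of the levels was alike at both ends of the list in all groups, with CS and MDH2 at the top and OGDH and IDH2 at the bottom. In labelled NLS libraries CS stood at 51.6 ± 1.64 CPM per kb (SD, n = 2), above MDH2 at 35.2, SUCLA2 at 34.9 and DLST at 33.9, which overlapped. SUCLG1 at 27.8 and FH at 27.1 overlapped as well, followed by IDH3A at 23.2, OGDH at 8.78 and IDH2 at 5.45 CPM per kb. In NLS controls MDH2 led with 114 ± 4.82 CPM per kb, above CS at 102 ± 8.05, and IDH3A, SUCLG1 and FH overlapped in a chain at 49.9, 47.3 and 46.1. DLST at 39.3 and SUCLA2 at 36.4 overlapped too, above OGDH at 14.9 and IDH2 at 14.0. SUCLA2 thus ranked 3 of 9 in labelled NLS libraries and 7 of 9 in the controls.

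In labelled OMM libraries the level per kilobase was 176 ± 12.0 for CS and 101 ± 3.74 CPM per kb for MDH2, then 51.5 for FH and 50.6 for SUCLG1, which overlapped. DLST followed at 45.6, IDH3A at 32.6 and SUCLA2 at 32.1, the last 2 overlapping, and IDH2 at 21.7 and OGDH at 20.8 overlapped at the end. In OMM controls CS had 140 ± 12.5 and MDH2 123 ± 8.75 CPM per kb, followed by SUCLG1 at 74.8 ± 10.1. FH stood at 55.6, DLST at 43.3, IDH3A at 37.4, SUCLA2 at 25.4, OGDH at 20.2 and IDH2 at 15.3 CPM per kb, with FH and DLST overlapping and OGDH overlapping both its neighbours. The order changed per kilobase of all annotated exons. SUCLA2, whose annotated exons add up to 8928 bases and whose main transcript has 2192, was at 8.56 CPM per kb in labelled NLS libraries. It ranked 7 of 9 there and 9 of 9 in the other groups. By this measure IDH2 ranked 5 of 9 in labelled OMM libraries, and FH ranked 2 of 9 in labelled NLS libraries, above MDH2.

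Ratios of counts within a library do not depend on how libraries are scaled. With 2 libraries a group, an exact permutation test of such a ratio cannot give a p under 0.333, so these are descriptions, of pairs chosen after their values were seen. SUCLG1 had 0.576 and 0.500 counts per SUCLA2 count in labelled NLS libraries, against 0.893 and 0.857 in NLS controls. At OMM the ratio was 1.09 and 1.03 in labelled libraries, against 2.00 and 1.97 in controls. The ratio was thus lower in labelled libraries at both sites, 1.63-fold at NLS and 1.87-fold at OMM.

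OGDH per DLST was 0.447 and 0.319 in labelled NLS libraries and 0.526 and 0.598 in NLS controls, while the OMM values overlapped, at 0.712 and 0.626 in labelled libraries and 0.521 and 0.869 in controls. DLST was also set against DLD, the remaining component of the complex. The ratio was 1.34 and 1.40 in labelled NLS libraries against 0.515 and 0.504 in controls, 2.69-fold higher, and overlapped at OMM. Within the NAD-dependent isocitrate dehydrogenase, IDH3A per IDH3G, a regulatory subunit, was 1.41 and 1.55 in labelled NLS libraries and 2.88 and 2.67 in controls. At OMM it was 1.59 and 3.27 in labelled libraries and 4.0 and 5.63 in controls, again lower with labelling but with a wide spread. IDH3A per IDH3B, the other regulatory subunit, overlapped at both sites, with 2.04 and 2.88 in labelled NLS libraries and 2.18 and 1.87 in NLS controls, and 1.05 and 2.26 in labelled OMM libraries and 1.29 and 1.15 in OMM controls.

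**Figure D3:**
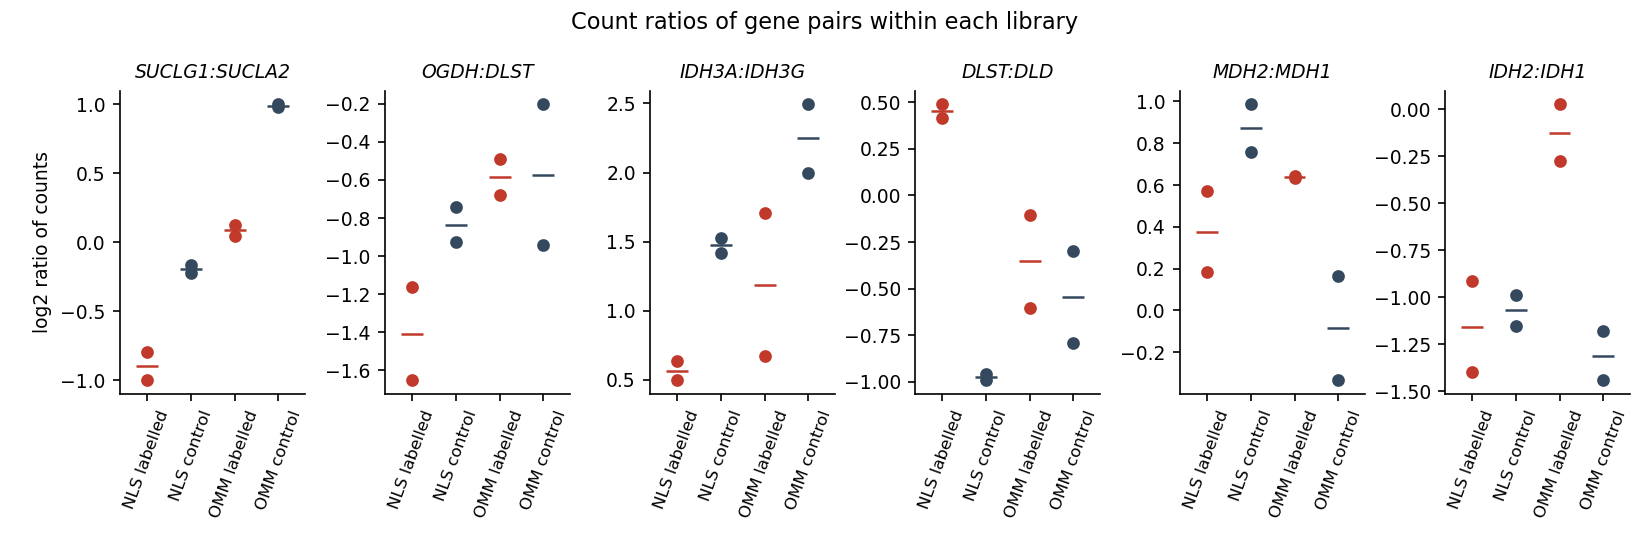
Log2 ratio of the counts of 2 genes in each library, 1 panel a pair, each with its own vertical scale. Points are libraries, bars means of 2, labelled libraries red and controls dark. The SUCLG1:SUCLA2 points of labelled libraries lie below their controls at both sites, and those of IDH2:IDH1 lie above their controls at OMM and overlap them at NLS.

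Mitochondrial enzymes were set beside their cytosolic counterparts. MDH2 per MDH1, the cytosolic malate dehydrogenase, was 1.56 and 1.55 in labelled OMM libraries and 1.12 and 0.794 in OMM controls, and at NLS it was 1.49 and 1.13 in labelled libraries against 1.98 and 1.69 in controls. IDH2 per IDH1, the cytosolic and peroxisomal enzyme, was 1.02 and 0.826 in labelled OMM libraries against 0.369 and 0.441 in OMM controls. At NLS that ratio overlapped, at 0.531 and 0.379 in labelled libraries and 0.504 and 0.450 in controls. CS per ACLY, a cytosolic enzyme, was 0.700 and 0.711 in labelled OMM libraries against 0.654 and 0.604 in OMM controls. At NLS it was 0.632 and 0.697 in labelled libraries against 0.563 and 0.506 in controls, so higher at both sites. Each of these mitochondrial forms had a larger part of its pair in labelled than in control OMM libraries. MDH2 itself was lower in labelled OMM libraries (log2 fold change -0.28), and MDH1 was lower still (-1.01).

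Of 11 other subunits of the cycle 9 fell and 1 rose in labelled NLS libraries, with a median log2 fold change of -0.89. With library size alone 5 fell and 2 rose, with a median of -0.37, and in 1 fit of all 8 libraries 4 fell and 0 rose. Of all genes, 3351 of 20858 fell and 9122 rose with library size alone. In the shared fit 2180 of 23178 genes fell and 212 rose. DLD, which is shared with other dehydrogenase complexes, fell with a log2 fold change of -1.64 ± 0.11, and IDH3B, a regulatory subunit, gave -1.35 ± 0.13. SUCLG2, the beta subunit of the GDP-dependent ligase, gave -0.89 ± 0.15. The 4 subunits of succinate dehydrogenase fell, SDHA with -0.53 ± 0.09, SDHB with -1.43 ± 0.15, SDHC with -0.69 ± 0.17 and SDHD with -1.44 ± 0.15. The calls of SDHA and SDHC ended with library size alone (adjusted p = 0.948 and 0.412 by edgeR) and in 1 fit of all 8 libraries (0.098 and 0.267), and that of SDHC also ended without labelled library 1 (0.107). SUCLG2 missed the threshold in the same 2 alternatives (0.0537 and 0.0773), and MRPS36 in the shared fit (0.0683). MRPS36, another subunit of the 2-oxoglutarate dehydrogenase complex, fell with -1.53 ± 0.21. The gene that rose was OGDHL, a relative of OGDH, by 0.97 ± 0.21 (adjusted p = 0.00577), with 20.2 and 27.9 CPM in labelled libraries and 11.9 and 12.6 CPM in controls. Its call ended without labelled library 3 (adjusted p = 0.0907) and in the shared fit (0.293). IDH3G gave -0.20 ± 0.11 (adjusted p = 0.141) and did not pass, but with library size alone it was 0.32 and counted as higher (adjusted p = 0.0332).

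All 6 cytosolic counterparts fell at NLS, with a median of -1.07. With library size alone 4 of the 6 fell and the median was -0.55, and 4 fell in 1 fit of all 8 libraries. Over all genes 3351 of 20858 fell with library size alone, and 2180 of 23178 in the shared fit. ACLY, which splits citrate in the cytosol, gave -1.29 ± 0.10, IDH1 -1.31 ± 0.12, MDH1 -1.21 ± 0.13 and GOT1, an aspartate aminotransferase, -0.92 ± 0.15. ACO1, the cytosolic aconitase, gave -0.64 ± 0.12 and malic enzyme, ME1, -0.82 ± 0.14, and these were the calls that ended with library size alone (adjusted p = 0.404 and 0.109) and in the shared fit (0.319 and 0.177). Of 12 enzymes that feed the cycle in the matrix 11 could be tested and 8 fell, with a median of -0.92, against 6 with library size alone. The lowest was GOT2, the mitochondrial aspartate aminotransferase, at -1.63 ± 0.12, and the highest PC, pyruvate carboxylase, at 0.47 ± 0.19 (adjusted p = 0.0624). PC counted as higher with DESeq2's size factors (0.51, adjusted p = 0.0412), with library size alone (0.99, adjusted p = 0.00233) and without control library 3 (0.60, adjusted p = 0.00368). ME3 was not tested, with 1 count in all 8 libraries. Genes of the cytosolic list thus fell at NLS as well as those of the matrix lists.

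At OMM 0 genes of these 3 lists passed by edgeR. An unadjusted p under 0.05 was reached by 0 of 11, 2 of 6 and 1 of 11 genes tested, and by 1524 of all 14438 genes. Their median log2 fold changes were -0.14 for the other subunits, -0.50 for the cytosolic counterparts and 0.03 for the feeding enzymes. Among the cytosolic counterparts the lowest values were those of GOT1, with 43.6 and 38.5 CPM in labelled OMM libraries and 117 and 122 CPM in controls (-1.54 ± 0.31, adjusted p = 0.127) and MDH1 with 139 and 148 CPM in labelled libraries and 254 and 324 CPM in controls (-1.01 ± 0.23, adjusted p = 0.157). IDH1 was at -0.69 ± 0.30, ME1 at -0.31 ± 0.60, ACLY at 0.16 ± 0.19 and ACO1 at 0.52 ± 0.45. With no filter on low counts 2 of the 6 were called, where 466 of all 19296 genes were. With DESeq2 3 of the 6 were called, where 1873 of the 15314 genes with an adjusted p were.

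Among the other subunits at OMM the values ran from -1.27 ± 0.83 for OGDHL to 0.82 ± 0.43 for IDH3G. SDHA was at 0.20 ± 0.25, SDHB at -0.52 ± 0.37, SDHC at 0.07 ± 0.36 and SDHD at -0.40 ± 0.27. IDH3B gave -0.55 ± 0.29, SUCLG2 -0.50 ± 0.36, DLD -0.14 ± 0.28 and MRPS36 0.25 ± 0.50. Of the feeding enzymes PDHB, a pyruvate dehydrogenase subunit, was lowest at -0.70 ± 0.25. The interaction term was called for 1 of 11 other subunits, 1 of 6 cytosolic counterparts and 2 of 11 feeding enzymes. All were lower at NLS than at OMM, as were 6.73% of all genes and 10.5% of protein-coding genes. They were DLD (-1.51 ± 0.33, adjusted p = 0.042), ACLY (-1.48 ± 0.20, adjusted p = 0.0113), GOT2 (-1.96 ± 0.33, 0.0199) and DLAT (-1.78 ± 0.19, 0.00566). GOT2 and DLAT were named after their values were seen. By edgeR, DLD lost its call with DESeq2's size factors (adjusted p = 0.123) and library size alone (0.109), and ACLY with library size alone (0.0618).

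**Figure D4:**
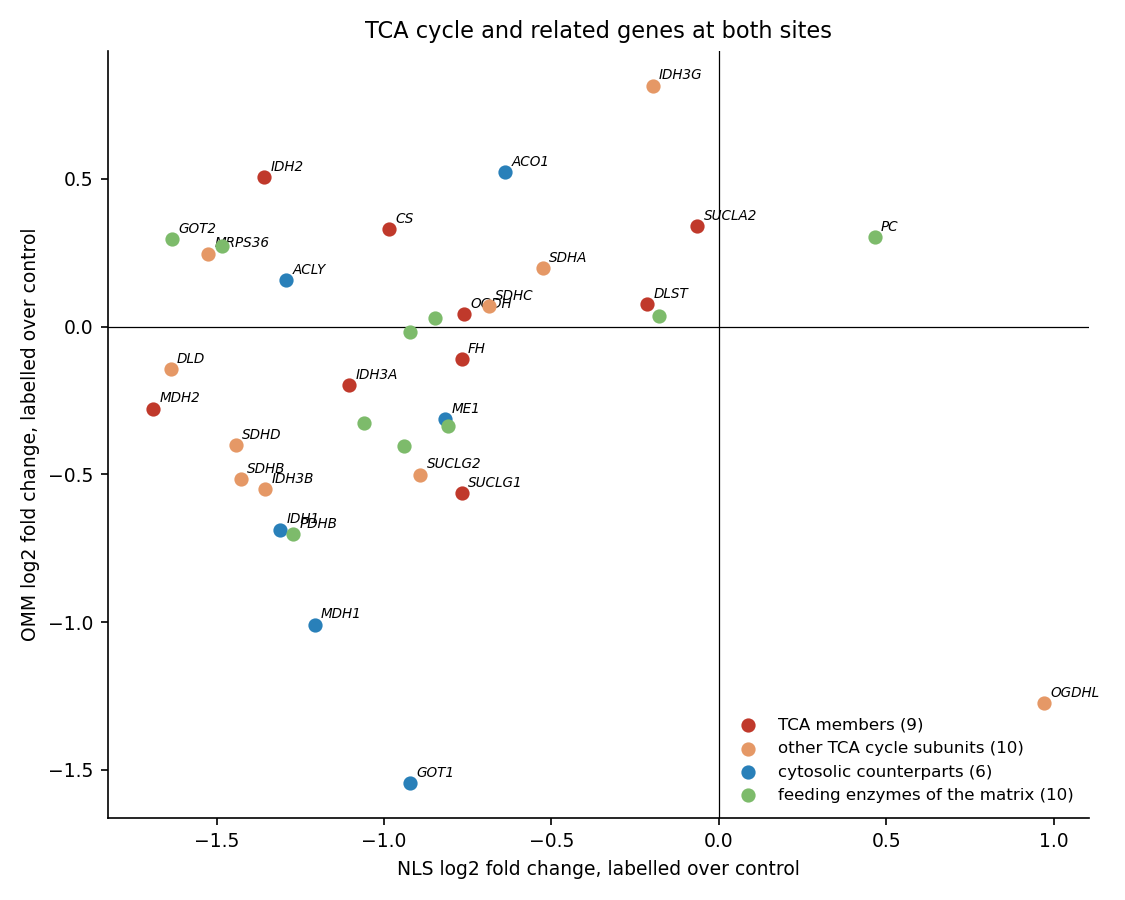
Log2 fold change of labelled over control at NLS (horizontal) and OMM (vertical) for the 9 members, 10 other subunits of the cycle, 6 cytosolic counterparts and 10 feeding enzymes, coloured by list. Most points lie left of 0 on the NLS axis and on both sides of 0 on the OMM axis, with GOT1 at -1.54 and MDH1 at -1.01 among the lowest at OMM.

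The genes whose profile over the 8 libraries, centred within each site, was most like the mean of the members were PTMS (Pearson's r = 1.00), MARCKSL1 (r = 0.997) and TFDP1 (r = 0.995), out of 5476 genes compared. The measure takes shape and not size, and their log2 fold changes were -2.32, -1.97 and -1.41 at NLS and 0.04, -0.03 and -0.01 at OMM. Among the members r with that mean was 0.977 for MDH2 and 0.939 for CS, and lowest for SUCLA2 at 0.154. Each member is part of that mean, so its r is partly built in. All these values share the same 8 libraries and their depth.

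The members differ in their gene models, given here from GENCODE 29 on GRCh38. MDH2 spans 76048051 to 76067508 on chromosome 7 with 9 exons in its main transcript, and SUCLA2 spans 47745736 to 48037968 on chromosome 13 with 11 exons, the longest of the 9 genes at 292233 bp. CS lies on chromosome 12 (56271699 to 56300392), IDH2 and IDH3A on chromosome 15 (90083045 to 90102504 and 78131498 to 78171949), and OGDH on chromosome 7 (44606572 to 44709066). DLST lies on chromosome 14 (74881891 to 74903745), SUCLG1 on chromosome 2 (84423523 to 84460045) and FH on chromosome 1 (241497603 to 241519761). Across the 9 genes, which share the libraries, Spearman's correlation of the log2 fold change at NLS was 0.63 with gene span, 0.50 with coding length and -0.08 with transcript length, as a description only.

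Some counts may hold reads of other genes or lack reads shared with them, since the strand setting of the counting is not given in the sources used here. IDH3A shares 2608 of its 6832 exonic bases with ACSBG1 on the opposite strand, which held at most 1.27% as many counts as IDH3A in any library. CS shares 220 exonic bases with ENSG00000144785 on the same strand, and that row held up to 52.1% as many counts as CS. There were 7 rows for pseudogenes named after a member, and 0 of them reached 10 counts in a library.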

How the data were processed

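Read counts for each gene were deposited by the authors. The submitters' processing notes name Trimmomatic, STAR, HTSeq, SAMtools, bedtools, DESeq2, GRCh38.p13 and hg38, with no versions. A second deposited file held the authors' log2 fold changes, labelled over control. The p-value deposited there by the authors was within 1% of DESeq2's adjusted p on these counts (version 1.42.0) for 100% of genes, with fold changes within 0.01. For release of RNA the series text gives Proteinase K (NLS) and TRIzol (OMM), the sample labels an RNeasy kit.

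Columns were given to groups by the site and arm in their names. Their numbers (NLS 1 and 3, labelled OMM 2 and 3, OMM controls 3 and 4) differ from the titles and only name libraries. Columns that matched no sample, 4 of counts and 2 of comparisons, were not used. Within each group the 2 libraries differed by more than sampling noise (chi-square per degree of freedom from 4.55 to 225).

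The test was edgeR 4.0.16 under R 4.3.3: robust quasi-likelihood F, TMM factors, filterByExpr with a minimum count of 10, prior count 0.125, two-sided, Benjamini-Hochberg over all tested genes, threshold 0.05. The sites were fitted apart, and their difference as an interaction over 8 libraries. CPM use TMM factors, except summed marker levels, which use library size. SE is the size of the fold change over the square root of F. Biological variation (BCV) was estimated as 0.166 for NLS and 0.958 for OMM. A floor of 3 counts, 0.142 to 0.373 CPM in NLS libraries and 0.0572 to 0.0864 CPM in OMM libraries, covers counting error only. The fits were tested on simulated data. Alternatives were other scaling, no filter, DESeq2, 1 shared fit, leaving out each library and a replicate block at NLS.

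Members and lists were chosen with earlier results of these data known. All members, other subunits and cytosolic counterparts were named, the highest and lowest feeding enzyme at each site, and the 3 genes most alike in profile, out of those averaging 5 or more log2 CPM at each site. Values of some genes that this rule names are not reported here. Transcripts and sequences of 60 bases come from GENCODE 29.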

Additional observations from a re-analysis of the deposited data

Results flagged for a closer look

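The interaction term set 3 members apart between the sites. The log2 fold change of labelled over control at NLS minus that at OMM was -1.34 for CS, -1.90 for IDH2 and -1.44 for MDH2. Outliers within a group could not be looked for with 2 libraries a group.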

How the results depend on the processing

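Counts below are of genes past the threshold. The members called numbered 0 at OMM in every alternative run. With DESeq2's size factors the members' median log2 fold change at NLS was -0.73, the difference between sites was 0.11 for DLST and 0.19 for SUCLG1, and it was called for 0 other subunits, 1 feeding enzyme and 998 genes in all, against 1887. With library size alone the members' NLS median was -0.25, and the NLS values were 0.30 for DLST, 0.46 for SUCLA2 and 0.32 for IDH3G. In that scaling 64 genes were called at OMM, and the difference was called for 1 member, 0 other subunits, 0 cytosolic counterparts, 1 feeding enzyme and 965 genes, with values of 0.15 for DLST, 0.23 for SUCLG1 and 0.029 for SUCLA2. With no filter 2 cytosolic counterparts and 466 genes were called at OMM, and 2 other subunits for the difference. With DESeq2's Wald test the NLS median was -0.73, 3 cytosolic counterparts, 1 feeding enzyme and 1873 genes were called at OMM, and 2 other subunits, 2 cytosolic counterparts and 4321 genes for the difference, which was 0.11 for DLST and 0.19 for SUCLG1. In 1 fit of all 8 libraries 4 other subunits and 2392 genes were called at NLS, and 1 cytosolic counterpart and 300 genes at OMM. The cause of these changes was not tested.

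Leaving out 1 library at a time, 7597 to 15149 genes were called at NLS and 204 to 482 at OMM, against 28 with all libraries. The members' NLS median ran from -0.96 to -0.81. The difference was called for 0 to 3 members, 0 to 3 other subunits, 0 to 1 cytosolic counterparts, 0 to 3 feeding enzymes and 0 to 3708 genes, and 0 to 1 cytosolic counterparts were called at OMM. SUCLA2 at NLS ran from -0.14 to 0.030. At OMM the ranges were -0.54 to 0.088 for IDH3A, -0.23 to 0.39 for OGDH, -0.035 to 0.19 for DLST, -0.37 to 0.21 for FH, -1.48 to 1.10 for PC, -0.42 to 0.44 for SDHC, -0.41 to 0.19 for DLD, -0.21 to 0.92 for MRPS36 and -0.60 to 0.044 for ME1. The numbers in the column names do not match the titles, and only at NLS do both arms share them, so a replicate block was fitted there alone, an alternative chosen after seeing the data. It called 7 members, 10 other subunits, 6 cytosolic counterparts, 8 feeding enzymes and 10771 genes, and changed no call of a gene named here. Same-numbered NLS libraries did not deviate together (r = -0.021 over 20858 genes), so they share only a number. With a lone library left in an arm, its spread was taken to be that of the other groups. Member values kept their direction and side of the threshold in 72 of 81 checks at NLS and 76 of 81 at OMM. For the difference between sites 82 checks kept both, 17 lost the call, 2 gained it and 7 changed sign. Only CS, IDH2 and MDH2 had a call to lose, so all 17 losses were theirs. They passed in 7, 3 and 9 of 12 alternatives. These tallies leave out the block.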
